A study of Mus musculus with 6 samples.

Results

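Brain capillaries are wrapped by pericytes, and arterioles and arteries by vascular smooth muscle cells, and together these are called mural cells. The 10 genes described here mark these cells or link them to the endothelium: Pdgfb, Pdgfrb, Rgs5, Abcc9, Anpep, Vtn, Notch3, Acta2, Tagln and Myh11. They were chosen by gene name from a table of 53465 genes, each had a single row there, and all 10 passed the expression filter that left 17561 genes for testing.

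RNA of the right hippocampus was sequenced, from male mice of the strain C57BL/6J, in 3 libraries of a Sham group and 3 libraries of a group with transient middle cerebral artery occlusion (tMCAO), a filament model of ischemic stroke. In the tMCAO group the filament stayed in the right internal carotid artery for 50 min and was then withdrawn. All mice were perfused through the heart with cold saline before dissection, and the libraries were made from poly(A) RNA. The sources used here do not give the age of the mice, the steps of the Sham operation or the time from occlusion to dissection. No transgene or other allele is named for either group.

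Endothelial cells secrete platelet-derived growth factor B, the product of Pdgfb, which holds pericytes on the vessel wall through their receptor PDGFR-beta, the product of Pdgfrb. Notch3 is the Notch receptor of mural cells and acts in their maturation. The contractile apparatus of arteriolar smooth muscle contains alpha-smooth muscle actin (Acta2), transgelin (Tagln) and the smooth muscle myosin heavy chain (Myh11), which capillary pericytes carry at low levels or not at all. In the hippocampus all of these cells are a small share of the tissue, so their RNA is diluted by that of neurons and glia. In such bulk samples, fewer cells of a type and less RNA per cell cannot be told apart.

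The promoters of the pair of genes that changed, Rgs5 and Anpep, and of Acta2, the actin gene whose level varied most between tMCAO libraries relative to its mean, are shown to place these genes in the genome. The 250 bases before the RefSeq start are printed 5′ to 3′ on the gene's strand (GRCm38.p6). They are chr1:169655251-169655500 (plus strand) for Rgs5, chr7:79848211-79848460 (minus strand) for Anpep and chr19:34255374-34255623 (minus strand) for Acta2. Capitals mark matches to the motifs named in the next paragraph.
Rgs5: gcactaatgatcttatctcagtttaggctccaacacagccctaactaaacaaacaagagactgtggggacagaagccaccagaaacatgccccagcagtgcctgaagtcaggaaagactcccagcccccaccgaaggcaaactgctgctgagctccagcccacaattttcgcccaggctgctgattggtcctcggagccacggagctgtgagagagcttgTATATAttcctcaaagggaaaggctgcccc
Anpep: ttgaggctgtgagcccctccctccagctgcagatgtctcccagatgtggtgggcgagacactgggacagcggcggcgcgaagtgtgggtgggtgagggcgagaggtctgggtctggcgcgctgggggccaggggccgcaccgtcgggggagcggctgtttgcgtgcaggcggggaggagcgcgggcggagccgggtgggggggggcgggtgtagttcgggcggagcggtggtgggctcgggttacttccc
Acta2: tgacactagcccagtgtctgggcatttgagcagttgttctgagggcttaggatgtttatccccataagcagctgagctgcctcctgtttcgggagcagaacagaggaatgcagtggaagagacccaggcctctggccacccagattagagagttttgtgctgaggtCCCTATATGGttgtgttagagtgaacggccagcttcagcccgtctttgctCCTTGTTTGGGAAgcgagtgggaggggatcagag

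Of the 10 genes, 6 had a promoter in the RefSeq table: these 3, Abcc9, Vtn and Notch3. Both strands were searched for the CArG box, bound by serum response factor, which drives smooth muscle genes together with myocardin. None of the 6 promoters held a full CArG box, which 1.47% of 32851 promoters hold. Acta2 held 2 CArG boxes in which 1 of the middle 6 bases is G or C, at 84 and 34 bases before the start, and 7.24% of promoters hold such a match. The core of the site bound by RBPJ, the transcription factor of Notch signalling, TGGGAA, was found in the Acta2, Abcc9 and Vtn promoters and in 21.6% of all promoters. In Acta2 it overlaps the end of the nearer CArG-like match. Rgs5 held TATATA, starting 30 bases before the start, as do 5.25% of promoters, and this motif was chosen after the sequence was read. The printed Anpep promoter held none of these motifs and was 72.8% G and C, against 53.6% for Rgs5 and for Acta2. The annotated Anpep gene reaches to position 79861059 on chromosome 7, upstream of the bases printed. Any start of Anpep farther upstream was not searched. A match is a string of letters and not a measured site.

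Before the results, 3 libraries need a remark. Sham 2 and tMCAO 3 stood apart in the makeup of the dissected tissue: the summed level of 9 striatal neuron genes was 602 and 516 FPKM there and 72.9 to 144 FPKM in the other libraries, and that of 10 choroid plexus genes was 26.02 and 10.04 FPKM against 356 to 737 FPKM. In tMCAO 1, 5 erythroid genes summed to 341 FPKM, against 2.76 to 14.6 FPKM elsewhere. FPKM, as deposited, are read numbers per length of the gene and scaled for the depth of the library. The hippocampal neuron list was detected in every library (82.7 to 114 FPKM summed over 10 genes). Its mean deviation from the Sham mean on the log2(FPKM + 1) scale was -0.60 in Sham 2 and -0.59 in tMCAO 3. In the other libraries that deviation was 0.18 to 0.40. Depth was greater in tMCAO, with 57773499 to 66128811 reads in genes per library against 39011025 to 46258696 in Sham.

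Levels differed widely among the 10 genes. In Sham the order by mean FPKM was Vtn (27.6), Rgs5 (19.4), Pdgfb (7.62), Pdgfrb (4.57), Acta2 (4.31), Tagln (3.21), Notch3 (2.18), Abcc9 (1.45), Anpep (1.37) and Myh11 (1.12). The libraries of Pdgfrb and Acta2, of Acta2 and Tagln, of Abcc9 and Anpep, and of Anpep and Myh11 overlapped, and those of the other neighbours in this order did not. In tMCAO, Tagln stood above Acta2 and Myh11 above Anpep, with overlapping libraries in both cases.

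**Figure D1:**
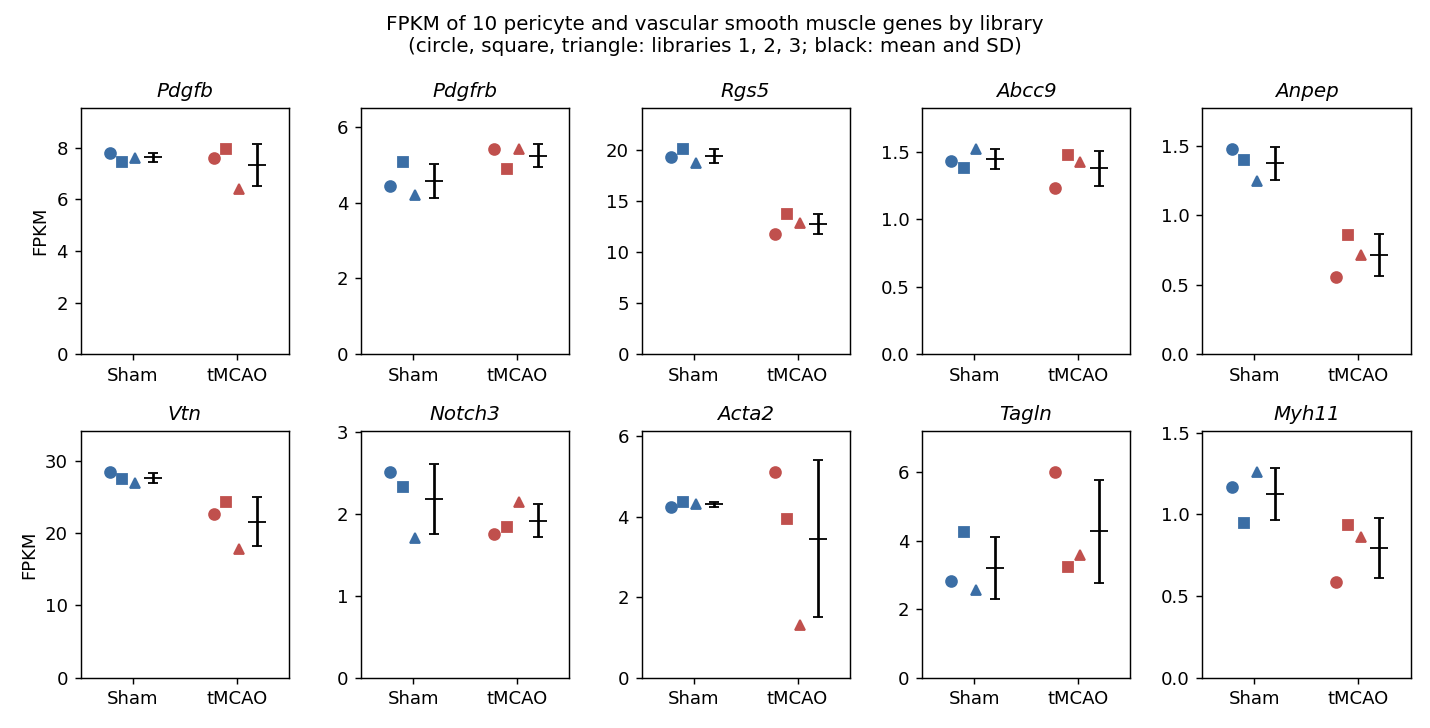
FPKM (y axis, from 0) of the 10 genes in the 3 Sham libraries (blue) and the 3 tMCAO libraries (red), with the mean and SD of each group in black. The groups do not overlap for Rgs5, Anpep, Vtn and Myh11, each lower in tMCAO, and Acta2 ranges from 1.31 to 5.11 FPKM within tMCAO.

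After tMCAO, 2 of the 10 genes fell and none rose: the pericyte genes Rgs5 and Anpep. Both fell by the limma test on log2(FPKM + 1) with Benjamini-Hochberg adjustment over all tested genes, with adjusted p below 0.05 as the threshold. That test called 16.2% of all 17561 genes, 8.93% as higher and 7.28% as lower (1569 and 1278 genes, but 1052 and 1596 with the libraries rescaled to an equal FPKM sum). The groups did not overlap for 4 of the 10 genes (Rgs5, Anpep, Vtn and Myh11), all lower in tMCAO, where 43.4% of tested genes did not overlap and 20.3% lay lower. The count of 4 in either direction is near that background. A log2 fold change below 0 was found in 8 of the 10 genes and in 50.0% of all tested genes, and its median over the 10 was -0.18. The authors' deposited table has an adjusted p below 0.05 for the same pair of genes, and for 20.2% of its genes, 9.41% lower in tMCAO.

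The PDGF pair did not change detectably. Pdgfb was at 7.79, 7.45 and 7.61 FPKM in Sham 1, 2 and 3 and at 7.61, 7.96 and 6.39 FPKM in tMCAO 1, 2 and 3. Its groups overlapped, with tMCAO 3 the lowest library. On the log2(FPKM + 1) scale the fold change was -0.055 (SE 0.090, 95% interval -0.27 to 0.16, limma adjusted p = 0.69), and it was 0.028 without tMCAO 3.

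Pdgfrb, the receptor, was at 4.43, 5.07 and 4.19 FPKM in Sham and at 5.43, 4.89 and 5.41 FPKM in tMCAO. Sham 2 lay within the tMCAO range, and the other Sham libraries below it. A log2 fold change of 0.17 was fitted (SE 0.089, 95% interval -0.042 to 0.38, limma adjusted p = 0.22). It was positive under each of the 16 alternatives, between 0.11 and 0.23, and was called in none of them. Pdgfrb rested on 958 to 1147 reads in the Sham libraries and 1567 to 1881 in those of tMCAO.

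Rgs5 encodes a regulator of G protein signalling and is among the most abundant pericyte transcripts. It was at 19.3, 20.1 and 18.7 FPKM in Sham and at 11.8, 13.7 and 12.8 FPKM in tMCAO. Every tMCAO library lay well below every Sham library, and the spread within each group was small, 19.4 ± 0.687 against 12.8 ± 0.956 FPKM (SD, n = 3 each). The level in tMCAO was 0.659 times that in Sham. The fall was -0.57 on the log2 scale (SE 0.076, 95% interval -0.75 to -0.39, limma adjusted p = 0.011), and 3.62% of tested genes had a lower value. The exact two-sided permutation test gave p = 0.10, the smallest that 3 against 3 libraries allow. The call was lost without Sham 1 (limma adjusted p = 0.060) and without Sham 3 (0.058). In these fits the log2 fold change was -0.57 and -0.59. Over all genes they called 124 and 75, against 2847 with all libraries. The call of Rgs5 was kept without Sham 2 (limma adjusted p = 0.048) and without tMCAO 1 (0.025). It was also kept with Sham 2 and tMCAO 3 left out together (0.030).

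Anpep encodes aminopeptidase N, the surface protein CD13, used to label brain pericytes and also made by some myeloid cells and fibroblasts. It was at 1.48, 1.40 and 1.24 FPKM in Sham and at 0.558, 0.860 and 0.716 FPKM in tMCAO. The groups were clearly apart, and tMCAO 1 was lowest. The mean went from 1.37 ± 0.119 to 0.711 ± 0.151 FPKM, or 0.518 times the Sham level. On the log2(FPKM + 1) scale, which compresses a level this low, the fold change was -0.47 (SE 0.097, 95% interval -0.70 to -0.25, limma adjusted p = 0.025, exact permutation p = 0.10). With a pseudocount of 0.1 it was -0.88, and with voom on the reads behind the FPKM -0.97. These reads were few, 236 to 241 in Sham and 132 to 208 in tMCAO. Of the fits that leave out 1 library, the call was lost without Sham 1, 2 and 3 (adjusted p = 0.10, 0.082 and 0.084) and without tMCAO 1 (0.052), and it was also lost with Sham 2 and tMCAO 3 left out together (0.069).

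Markers of myeloid cells were read beside Anpep. Of 6 monocyte and macrophage genes 3 were tested and none passed, and the summed level of the 6 was 4.90 to 6.35 FPKM in Sham and 5.49 to 9.41 FPKM in tMCAO. Mrc1, the mannose receptor of perivascular macrophages, was at 0.555 ± 0.239 FPKM in Sham and at 1.33 ± 0.428 FPKM in tMCAO (limma adjusted p = 0.062). Lyz2, the lysozyme of myeloid cells, was at 4.56 ± 0.442 and 5.53 ± 1.55 FPKM, with overlapping groups (limma adjusted p = 0.45). Of 6 microglial genes 4 fell, where 7.28% of all tested genes were called lower. Their summed level was 86.6 to 99.6 FPKM in Sham and 55.6 to 69.1 FPKM in tMCAO. The part of these cells in the level of Anpep was not tested.

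Vtn encodes vitronectin, an adhesive glycoprotein that pericytes secrete in the brain. It was at 28.5, 27.5 and 27.0 FPKM in Sham and at 22.7, 24.3 and 17.8 FPKM in tMCAO. Each tMCAO library lay below each Sham library, with tMCAO 3 farthest. The log2 fold change was -0.35 (SE 0.11, 95% interval -0.62 to -0.080), but the limma adjusted p was 0.077 and the exact permutation p 0.10, so Vtn did not pass. It was called under none of the 16 alternatives, with adjusted p from 0.053 to 0.20, and the authors' deposited table gives an adjusted p of 0.063.

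Abcc9 and Notch3 did not pass either. Abcc9, which encodes the sulfonylurea receptor SUR2 of the ATP-sensitive potassium channel, was at 1.44, 1.38 and 1.52 FPKM in Sham and at 1.23, 1.48 and 1.43 FPKM in tMCAO, with overlapping groups. Its log2 fold change was -0.042 (95% interval -0.24 to 0.15, limma adjusted p = 0.74). Its channel partner Kcnj8, the pore subunit Kir6.1, was at 1.33, 1.14 and 1.22 FPKM in Sham and at 2.65, 1.99 and 1.43 FPKM in tMCAO. The Kcnj8 groups did not overlap, at a fitted difference of 0.42 on the log2 scale (SE 0.15, limma adjusted p = 0.094), and this gene was named with its values in view. Notch3 was at 2.51, 2.34 and 1.71 FPKM in Sham and at 1.76, 1.85 and 2.15 FPKM in tMCAO. Sham 3 lay below all tMCAO libraries and the other Sham libraries above them, and the log2 fold change was -0.12 (95% interval -0.40 to 0.17, limma adjusted p = 0.51). Notch3 shares 6.03% of its exon length with Gm17276 on the opposite strand.

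**Figure D2:**
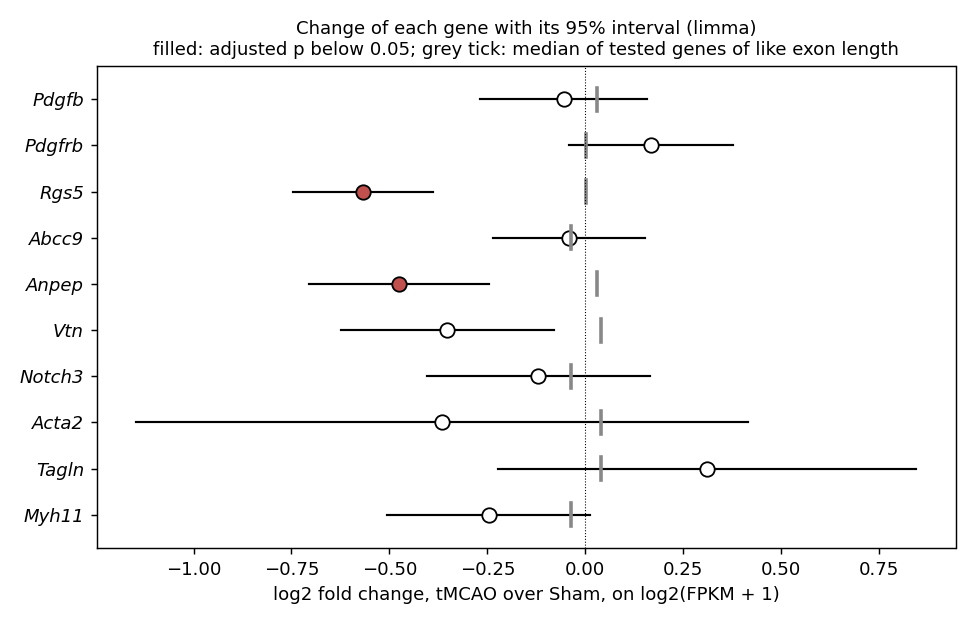
Log2 fold change of tMCAO over Sham on log2(FPKM + 1) (x axis) with its 95% interval from limma for the 10 genes. Filled points are past an adjusted p of 0.05 (Rgs5 at -0.57 and Anpep at -0.47), and grey ticks give the median of tested genes of like exon length, which lies between -0.036 and 0.040 for all 10.

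None of the 3 contractile genes of smooth muscle passed the test. Acta2 was at 4.24, 4.36 and 4.31 FPKM in Sham and at 5.11, 3.94 and 1.31 FPKM in tMCAO. The Sham libraries lay close together, whereas tMCAO 1 lay above them, tMCAO 2 below them and tMCAO 3 far below them. The fitted log2 fold change was -0.37 (SE 0.33, 95% interval -1.15 to 0.42, limma adjusted p = 0.46), and it was 0.051 without tMCAO 3. The low value in tMCAO 3 rested on 148 reads, against 521 and 411 in tMCAO 1 and 2 and 298 to 352 in Sham. Of the 50-base windows of Acta2 transcripts, 0.326% also occur in another gene. Among the other actins, Acta1 was at 5.82 FPKM in tMCAO 3 and at 4.09 to 5.44 FPKM in the other libraries.

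Tagln, an actin-binding protein of smooth muscle, was at 2.82, 4.25 and 2.56 FPKM in Sham and at 6.01, 3.25 and 3.57 FPKM in tMCAO. Only tMCAO 1 lay above all Sham libraries. Its log2 fold change was 0.31 (95% interval -0.22 to 0.85, limma adjusted p = 0.36), and 0.088 without tMCAO 1. The value is uncertain: 67.9% of the exon length of Tagln lies under Gm48529 on the opposite strand, and the sources used here do not give the strand setting of the counting. The deposited values include no gene of the name Gm48529, so its level could not be read beside that of Tagln. Its paralog Tagln2, which non-muscle cells express, was at 3.67 to 4.15 FPKM in Sham and 7.64 to 10.7 FPKM in tMCAO.

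Myh11, the myosin heavy chain that marks smooth muscle most specifically, was at 1.17, 0.949 and 1.26 FPKM in Sham and at 0.587, 0.933 and 0.862 FPKM in tMCAO. All tMCAO libraries were lower, but tMCAO 2 and Sham 2 nearly touched. A log2 fold change of -0.25 (95% interval -0.50 to 0.012, limma adjusted p = 0.15, exact permutation p = 0.10) was fitted, and with a pseudocount of 0.1 it was -0.47 without a call. It rested on 260 to 383 reads in Sham and 223 to 363 in tMCAO.

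Plain ratios of FPKM between genes of the same library do not depend on the library's scaling. Log2 ratios on the log2(FPKM + 1) scale do so in part, because 1 is added to each FPKM. Rgs5 was 4.34, 3.97 and 4.47 times Pdgfrb in Sham and 2.17, 2.80 and 2.37 times Pdgfrb in tMCAO. Anpep was 0.276 to 0.333 times Pdgfrb in Sham and 0.103 to 0.176 times in tMCAO, and Vtn 5.42 to 6.43 times in Sham and 3.29 to 4.98 times in tMCAO. Notch3 was 0.407 to 0.567 times Pdgfrb in Sham and 0.324 to 0.397 times in tMCAO. The groups did not overlap in these 4 of the 9 ratios to Pdgfrb, all lower in tMCAO. The same 4 did not overlap as log2 ratios on the log2(FPKM + 1) scale. On that scale, over the other 17560 tested genes, 38.5% of ratios to Pdgfrb did not overlap and 31.4% did so with tMCAO lower. Each of the 4 gave an exact permutation p of 0.10 on the log2(FPKM + 1) scale, the smallest possible. They were chosen after the values were seen and rest in part on Pdgfrb, whose own level was higher in 2 of 3 tMCAO libraries than in any Sham library.

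Abcc9 and Pdgfb overlapped between the groups relative to Pdgfrb, with exact permutation p of 0.20 each. Myh11 and Tagln overlapped as well (exact permutation p = 0.20 and 0.50). So did Acta2, at 0.957, 0.861 and 1.03 times Pdgfrb in Sham and 0.942, 0.807 and 0.242 times in tMCAO (exact permutation p = 0.20). Tagln relative to Acta2 was 0.593 to 0.974 in Sham and 1.18, 0.824 and 2.73 in tMCAO 1, 2 and 3. The last of these is the library with the low Acta2.

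The 10 genes were also set against the mean of 14 endothelial genes, as log2 ratios on the log2(FPKM + 1) scale. The share of all tested genes whose groups do not overlap was not computed for these ratios, so no count is read from them. Pdgfrb went from -0.076 ± 0.070 to 0.42 ± 0.26, Abcc9 from -1.26 ± 0.089 to -0.97 ± 0.14 and Pdgfb from 0.56 ± 0.067 to 0.83 ± 0.18 (SD, n = 3), all higher in tMCAO. Rgs5 went from 1.80 ± 0.0026 to 1.56 ± 0.10 and Anpep from -1.30 ± 0.059 to -1.45 ± 0.083, both lower. Vtn, Notch3, Acta2, Tagln and Myh11 overlapped between the groups, and Vtn differed by -0.024, from 2.29 ± 0.052 to 2.27 ± 0.21. These ratios move with the endothelial genes as well as with the gene named. The endothelial mean itself stood at -0.48, -0.11 and -0.39 from its Sham mean in tMCAO 1, 2 and 3. A gene at an unchanged level would therefore have a higher ratio in tMCAO. In FPKM, the groups of Pdgfrb, Abcc9 and Pdgfb overlapped.

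**Figure D3:**
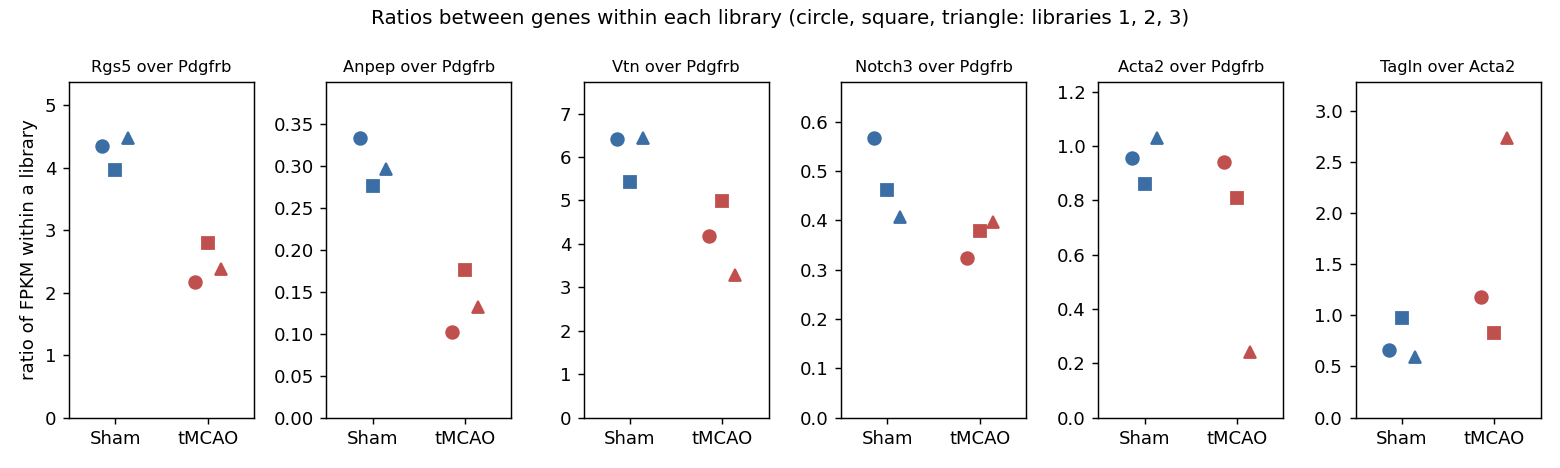
Ratio of FPKM between 2 genes within each library (y axes, from 0) for 3 Sham (blue) and 3 tMCAO (red) libraries. Rgs5, Anpep, Vtn and Notch3 relative to Pdgfrb do not overlap between the groups, and tMCAO 3 stands apart for Acta2 over Pdgfrb (0.242) and Tagln over Acta2 (2.73).

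Other genes of these cells were read from lists that were chosen with earlier results of these data known. Of 16 other pericyte genes 3 fell, none rose and 13 did not pass, with a median log2 fold change of -0.16 and 2 positive values, against a median of 3.1e-05 over all tested genes, of which 16.2% were called and 7.28% called lower. Their summed level was 35.2 to 37.2 FPKM in Sham and 27.2 to 29.6 FPKM in tMCAO. The 2 positive values were those of Kcnj8, given above, and Foxc1, also named with its values in view. Foxc1 was at 0.884 ± 0.0602 FPKM in Sham and 1.28 ± 0.0604 FPKM in tMCAO, without overlap (limma adjusted p = 0.052). With quantile normalization, with no trend, with voom and without tMCAO 3, 1 gene of this list was called higher. Slc30a10, a manganese exporter, fell from 3.85 ± 0.200 to 2.35 ± 0.281 FPKM (limma adjusted p = 0.017). Atp13a5, a transport ATPase marking brain pericytes, fell from 3.34 ± 0.0952 to 2.002 ± 0.561 FPKM (adjusted p = 0.046, limma), and Cspg4, the proteoglycan NG2 that oligodendrocyte precursors also make, from 1.73 ± 0.0157 to 1.19 ± 0.179 FPKM (adjusted p = 0.0497, limma). The calls of Slc30a10, Atp13a5 and Cspg4 were each lost without Sham 1, 2 or 3, with limma adjusted p up to 0.16. Those of Atp13a5 and Cspg4 were also lost with a pseudocount of 0.1, with no filter and with Sham 2 and tMCAO 3 left out together. That of Cspg4 was lost as well without tMCAO 1 or 3, with quantile normalization and with the full gene set as input.

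Of 17 other smooth muscle genes 12 were tested, 1 fell and 11 did not pass, with a median log2 fold change of -0.035. Over all tested genes, 7.28% were called lower. Myl9, the regulatory light chain of smooth muscle myosin, was at 8.58, 7.08 and 7.32 FPKM in Sham and at 4.36, 4.13 and 2.66 FPKM in tMCAO. It fell by 0.89 on the log2(FPKM + 1) scale (SE 0.16, limma adjusted p = 0.019), with every tMCAO library below every Sham library, and was lost without Sham 1, 2 or 3 (adjusted p up to 0.080). Cnn1, Actg2, Myocd, Pln and Kcnmb1 lay below the filter. Mylk, the myosin light chain kinase, was at 1.75 ± 0.0689 and 1.65 ± 0.0508 FPKM and did not pass (limma adjusted p = 0.65), a gene named with its values in view.

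Of 4 other PDGF ligands and receptors none passed (median log2 fold change -0.033). Of these, 2 are named for their high level: Pdgfa, which shares 26.1% of its exon length with 6330403L08Rik, was at 9.89 ± 0.650 and 9.85 ± 2.01 FPKM and Pdgfra, the receptor of oligodendrocyte precursors and fibroblasts, at 6.33 ± 0.545 and 7.11 ± 0.434 FPKM. Of 13 other Notch pathway genes 1 rose and 12 did not pass (median 0.0031), where 8.93% of all tested genes were called higher. Dll4, the Notch ligand of endothelial cells, was at 0.658, 0.704 and 0.725 FPKM in Sham and at 1.70, 1.41 and 1.37 FPKM in tMCAO, a rise of 0.55 on the log2(FPKM + 1) scale (SE 0.086, limma adjusted p = 0.015). That call was lost without Sham 1, 2 or 3 (adjusted p up to 0.074). The Notch target Hey2 was at 0.956 ± 0.112 and 1.01 ± 0.216 FPKM, and was likewise named with its values in view.

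Neighbouring cells of the vessel wall were measured alongside. Of 14 endothelial genes 6 fell and 2 rose, with a median log2 fold change of -0.12 and a summed level of 85.1 to 93.5 FPKM in Sham and 64.4 to 87.2 FPKM in tMCAO. Beside the counts of this paragraph stand the shares over all tested genes, 16.2% called, 7.28% lower and 8.93% higher. Itm2a fell from 18.9 ± 2.06 to 5.97 ± 0.517 FPKM and Tek, the angiopoietin receptor, from 3.22 ± 0.160 to 0.822 ± 0.279 FPKM. Abcb1a, the efflux pump P-glycoprotein of the blood-brain barrier, fell from 6.16 ± 0.325 to 2.46 ± 0.617 FPKM and shares 10.1% of its exon length with Gm42686, while Cdh5, the endothelial cadherin, rose from 3.13 ± 0.0332 to 6.87 ± 1.34 FPKM. Of 12 perivascular and meningeal fibroblast genes 10 were tested, 2 fell (Ogn and Fmod) and 1 rose (Aldh1a2, which makes retinoic acid, from 4.87 ± 1.02 to 12.4 ± 3.59 FPKM). Itm2a and Tek passed in each fit that left out 1 library. Abcb1a, Cdh5 and Ogn were lost without Sham 1 or Sham 3 (adjusted p up to 0.055, 0.065 and 0.058), Aldh1a2 without Sham 1, 2 or 3 and without tMCAO 1 (up to 0.080), and Fmod in all but 1 of the 6 fits (up to 0.16). Fmod was also lost with no filter, with quantile normalization, with the full gene set as input and with voom on reads. It was lost as well with Sham 2 and tMCAO 3 left out together. The summed level of the fibroblast list was 31.4 to 42.5 FPKM in Sham and 32.6 to 54.4 FPKM in tMCAO, lowest in Sham 2 and tMCAO 3. The part of the endothelial and fibroblast genes, or of the striatal and choroid plexus RNA, in the levels of the 10 genes was not tested.

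**Figure D4:**
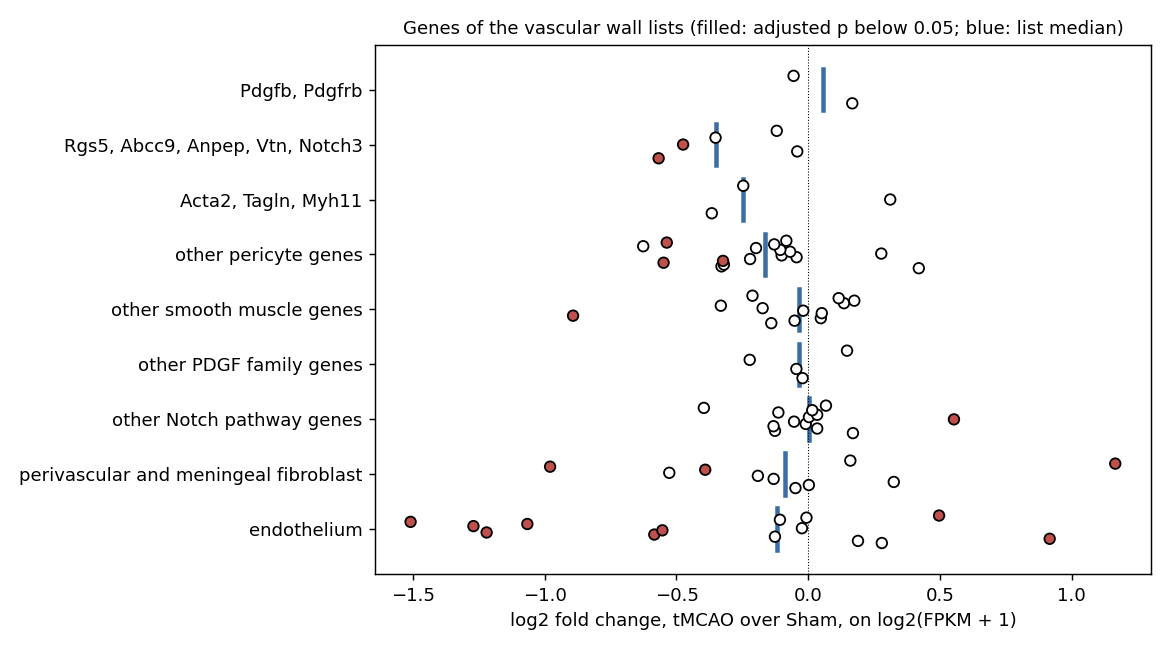
Log2 fold change of tMCAO over Sham on log2(FPKM + 1) (x axis) of each tested gene in the lists of the vessel wall, with filled points past an adjusted p of 0.05 and blue bars at list medians. Of 16 other pericyte genes 3 are called, all lower, of 12 tested smooth muscle genes 1 (Myl9, lower) and of 14 endothelial genes 8, 6 lower and 2 higher. Over all tested genes 16.2% are called, 7.28% lower and 8.93% higher.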

How the data were processed

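Gene expression was measured by RNA sequencing in 3 Sham and 3 tMCAO libraries. The deposited FPKM values were computed by the authors, scaled by gene length and by a library factor, and the submitters' processing notes name genome build mm10. The sources used here do not give the aligner, the counter, the annotation or the library factor. A second table holds the same FPKM (largest difference 1.8e-12) for 22647 genes with the authors' deposited log2 fold change (Sham over tMCAO), p-value and adjusted p-value. Titles matched the Sham columns to samples, whereas tMCAO columns carry the group's name and a number, used here as tMCAO 1 to 3. Reads came from whole multiples of the worth of 1 read, using GENCODE M21 exon lengths for 94.1% of 36452 expressed genes and otherwise the smallest whole numbers that fit the 6 libraries (tolerance 0.001). The latter applies to Pdgfb, Notch3, Acta2 and Myh11. Intervals and read numbers cover these libraries only, and p-values measure the spread between them, since separate animals are not named in the labels.

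limma 3.58.1 in R 4.3.3 was fitted to log2(FPKM + 1) over genes of the comparison table with a mean FPKM of at least 0.5, with a mean-variance trend and a two-sided test. The procedure was tested on simulated data. The members and the lists were chosen with earlier results of these data known. Besides the 10 genes, the rule allowed up to 4 genes with the smallest adjusted p of those called in a list, or, with no call, the 2 of highest FPKM. The microglial, striatal, choroid plexus, erythroid and neuronal lists are given by sums and counts alone, except for the mean deviation of the hippocampal list. Paralogs (Acta1, Tagln2 and the like) are given by FPKM as a check of shared reads. Alternatives were another pseudocount, other filters, 3 other scalings, no trend, the table of all genes, voom on reads and leaving out libraries.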

Additional observations from a re-analysis of the deposited data

How the results depend on the processing

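The 10 genes gave 2 calls with all libraries. They gave 1 (Rgs5) at a mean FPKM of at least 2, where Anpep was not tested, and 1 (Rgs5) without Sham 2 and tMCAO 3. When 1 library was left out they gave 0 to 2 calls, and the count over all genes, 2847 with all libraries, was 75 to 3896. At 0 calls, without Sham 1 or Sham 3, 2 and 3 of the 10 genes had an unadjusted limma p below 0.05. Rgs5 and Anpep kept a negative log2 fold change under each alternative that tested them, between -0.64 and -0.52 and between -0.97 and -0.41. Signs turned in genes without a call. With 1 library left out, Abcc9 ran from -0.071 to 0.0032 (without tMCAO 1), Pdgfb from -0.11 to 0.028 and Acta2 from -0.65 to 0.051 (both without tMCAO 3), and the log2 ratio of Tagln to Pdgfrb, 0.14 higher in tMCAO, from -0.057 (without tMCAO 1) to 0.25. Without Sham 2 and tMCAO 3, Pdgfb was at 0.013 and Acta2 at 0.059. The cause was not tested. With 3 libraries a group, the exact test cannot go below p = 0.10, and Anpep rests on as few as 132 reads in a library. No paired analysis was possible because the titles number the libraries without a shared number between groups.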
